A study of Mus musculus with 60 samples.

Results

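The genes described here encode the proteasome, the protease that degrades ubiquitin-tagged proteins, together with its regulators and assembly factors. They were taken by name, as protein-coding genes whose symbol starts with Psma to Psmg and a digit. The rule found 51 of the 55414 genes in the deposited table, of which 21884 were protein-coding. The data were 60 RNA-seq libraries of mPFC tissue, the medial prefrontal cortex, taken from mice of the DBA2/J strain with GFP-L10a, a ribosomal protein with a green fluorescent tag. An antibody to GFP pulled the tagged ribosomes down (IP), and Input libraries came from the same tissue without the pulldown. IP libraries carry the cell type label aPVT projector and Input libraries the label for bulk mPFC. The groups were called SA, SA:ANH, ANH, RES and NS, with 6 IP and 6 Input libraries each, and the labels call the first 4 subtypes. The design text states 5 days of social defeat stress and does not spell the group names out. All groups share the strain and the tagged ribosomal protein. The labels used here give no age, sex or route of the tag, nor whether a library is 1 animal or a pool. The p-values therefore measure the spread between libraries, which may be technical.

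The core of the proteasome, the 20S particle, is a barrel of stacked rings. The outer rings are built from alpha subunits (Psma genes), which gate the entry, and the inner rings from beta subunits (Psmb genes), of which Psmb5, Psmb6 and Psmb7 carry the constitutive catalytic sites. The 19S cap unfolds substrates with a ring of ATPases (Psmc genes) and recognises and de-ubiquitinates them with non-ATPase subunits (Psmd genes). Immune signals, above all interferon, induce Psmb8, Psmb9 and Psmb10, which replace the constitutive catalytic subunits in the immunoproteasome. The PA28 activators (Psme1, Psme2 and Psme3) and PA200 (Psme4) open the barrel in place of the cap, and Psmg chaperones build the 20S rings. In neurons, proteasomes turn over synaptic and cytosolic proteins. By role the 51 genes held 14 constitutive 20S subunits, 6 19S ATPases, 11 19S non-ATPases, 3 19S assembly chaperones (Psmd5, Psmd9, Psmd10), 4 20S assembly chaperones, 4 activators, 3 immunoproteasome subunits, the regulator Psmf1, the testis subunit Psma8 and the thymus subunit Psmb11. Psme2b and Psme3ip1 were left without a role, and Psmc3ip matches the name rule but encodes a recombination cofactor.

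Promoters are shown for 4 members because these genes moved together (Psma7, Psmb6 and Psmb5) or apart from the others (Psmd2) in the pulldown. The sequences are RefSeq's, on GRCm38.p6, and hold the 250 bases before the annotated start, read in the direction of the gene. They lie at chr2:180042465-180042714 on the minus strand for Psma7, at chr11:70525107-70525356 on the plus strand for Psmb6, at chr14:54617996-54618245 on the minus strand for Psmb5 and at chr16:20651402-20651651 on the plus strand for Psmd2. Capitals mark matches, on either strand, to the core of the antioxidant response element, TGACNNNGC, or to the CCAAT box.
Psma7: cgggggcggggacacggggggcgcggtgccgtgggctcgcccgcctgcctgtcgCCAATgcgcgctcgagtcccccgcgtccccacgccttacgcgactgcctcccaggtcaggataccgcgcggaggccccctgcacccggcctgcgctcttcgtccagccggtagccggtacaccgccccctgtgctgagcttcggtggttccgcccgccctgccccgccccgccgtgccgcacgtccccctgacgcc
Psmb6: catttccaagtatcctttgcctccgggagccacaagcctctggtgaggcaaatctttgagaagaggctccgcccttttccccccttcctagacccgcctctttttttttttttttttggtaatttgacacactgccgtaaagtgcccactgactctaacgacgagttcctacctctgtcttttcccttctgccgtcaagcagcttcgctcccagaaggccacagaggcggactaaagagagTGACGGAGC
Psmb5: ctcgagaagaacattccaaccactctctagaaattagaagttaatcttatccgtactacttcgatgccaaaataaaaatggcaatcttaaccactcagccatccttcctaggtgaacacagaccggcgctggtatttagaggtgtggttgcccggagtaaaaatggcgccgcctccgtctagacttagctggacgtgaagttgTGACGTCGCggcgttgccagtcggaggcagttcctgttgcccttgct
Psmd2: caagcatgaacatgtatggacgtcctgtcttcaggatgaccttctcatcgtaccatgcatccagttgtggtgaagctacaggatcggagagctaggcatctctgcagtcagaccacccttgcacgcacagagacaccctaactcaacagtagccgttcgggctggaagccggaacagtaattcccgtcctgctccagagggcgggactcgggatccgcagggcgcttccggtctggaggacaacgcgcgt

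RefSeq windows of 300 bases, 250 before and 50 after a start, were found for 43 of the 51 members, and some genes had several. TGACNNNGC was present in 12.8% of the 47 member windows and in 12.4% of all 32851 windows. Its matches lay in Psmb5, Psmb6, Psmc6, Psmd9, Psmd12 and Psme4. CCAAT was present in 34% of member windows and 37.4% of all. A repeat of GAAA with 2 bases between its copies, as in interferon response elements, was present in 10.6% of member windows, in Psmb3, Psmd4, Psmd9, Psme1 and Psmg4, and in 3.44% of all. The motifs do not contain each other. These shares describe letters in a window, and no binding was measured.

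Library totals ran from 19078928 to 27073456 counts, and the 51 members took 0.663% to 0.77% of the counts of an IP library and 0.722% to 0.765% of an Input library. Levels are given as CPM (counts scaled to library size) after TMM scaling, and a gene was called at an adjusted p under 0.05 over all genes tested. Among fixed cell type lists, the summed level of 5 excitatory neuron markers was 4130 to 5730 CPM in IP against 2980 to 3670 CPM in Input libraries. By IP group this sum was 4130 to 4680 CPM in SA, 4890 to 5280 in SA:ANH, 4940 to 5690 in ANH, 4700 to 5040 in RES and 5130 to 5730 in NS. The sum of 6 microglial markers was 3.56 to 10.5 CPM in IP against 226 to 307 CPM in Input. The IP groups differed in these lists. Summed oligodendrocyte markers were 127 to 157 CPM in SA:ANH, 185 to 214 in SA, 220 to 262 in NS, 611 to 634 in ANH and 875 to 988 in RES. Summed layer 5 extratelencephalic markers were 934 to 1060 CPM in SA, 907 to 1010 in NS, 755 to 859 in RES, 633 to 685 in ANH and 535 to 587 in SA:ANH. The like sums of SA and NS hide opposite changes. On the log2 scale Fezf2 (0.48), Pou3f1 (0.32) and Parm1 (0.29) were called higher in SA, and Bcl11b (-0.29) and Nefm (-0.19) lower. Blood markers summed to 38.8 to 50.2 CPM in SA, 41.9 to 51.5 in SA:ANH, 23.9 to 28 in ANH, 22.1 to 34.8 in RES and 14.8 to 23.7 in NS. Astrocyte markers summed to 101 to 127 CPM in SA, 112 to 132 in SA:ANH, 156 to 185 in ANH, 147 to 201 in RES and 154 to 178 in NS. Inhibitory neuron markers summed to 35.8 to 42.6 CPM in SA, 56.9 to 71.4 in SA:ANH, 90.7 to 110 in ANH, 120 to 128 in RES and 61.3 to 76.8 in NS. The genes of this list did not move alike. Against NS, Sst was called higher in ANH (log2 difference 1.03) and SA:ANH (0.45) and lower in SA (-0.91). Gad1 and Gad2 were called lower in SA and SA:ANH and did not pass in ANH. The part of these differences in the results below was not tested. In bulk samples, fewer cells of a type and less RNA per cell cannot be told apart.

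Members spanned a wide range of levels in the pulldown. On the scale of CPM per kilobase of gene length, averaged over the 30 IP libraries, the highest were Psmc5, an ATPase of the 19S ring, at 308 and the catalytic subunit Psmb6 at 301. Psmc1 followed at 190 and Psmb4 at 181, while the catalytic subunits Psmb5 and Psmb7 stood at 172 and 51.6. The activators were lower, with Psme2 at 49.5, Psme3 at 42.5, Psme1 at 40 and Psme4 at 1.28 CPM per kilobase. Psmb11 (0.168), Psmb8 (0.14), Psmb9 (0.0885) and Psma8 (0.0314) were at the bottom. In all 44 members had a mean of 10 CPM or more in IP. After the filter on low counts 49 members were tested in IP, where Psma8 and Psmb9 dropped out, and all 51 in Input and in the fit of both fractions.

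The pulldown and bulk tissue differed most in the immunoproteasome. On the log2 scale Psmb8 differed by -5.03 ± 0.28 (SE) in IP against Input and Psmb9 by -3.80 ± 0.24, while Psmb10, the third of these subunits, differed by -0.18 ± 0.023. Psmb8 ran from 5.39 to 11.4 CPM over the 30 Input libraries (median 7.30) and from 0 to 1.47 CPM over the 30 IP libraries (median 0.178), with 12 IP libraries at 0. Psmb9 ran from 1.90 to 5.44 CPM in Input (median 3.74) and from 0 to 1.02 CPM in IP (median 0.224), with 5 IP libraries at 0. The fractions did not overlap for either gene. In total 181 counts of Psmb8 and 177 of Psmb9 were found in IP, against 5457 and 2562 in Input. Psmb10 behaved otherwise, at 68 to 118 CPM in IP (median 90.1) and 91.8 to 115 CPM in Input (median 103.5), and these ranges overlapped. The deposited table places Psmb9 (chromosome 17, 34400961 to 34406738) and Psmb8 (chromosome 17, 34416695 to 34420428) near each other. These positions are not those of GRCm38, and no source used here gives their build.

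The opposite pattern was largest for Psmc6, an ATPase of the 19S ring, which was higher in IP by 1.02 ± 0.034. It ran from 62.4 to 90.6 CPM in IP (median 75.5) and from 28.1 to 48.1 CPM in Input (median 37.2), without overlap. Psmd3, a scaffold subunit of the cap, followed with 0.46 ± 0.021, at 314 to 409.5 CPM in IP against 252 to 307 in Input. The proteasome activator Psme4 was higher by 0.30 ± 0.083, Psma3 by 0.28 ± 0.026, the deubiquitinase Psmd14 by 0.25 ± 0.026 and the assembly chaperone Psmg4 by 0.25 ± 0.043. On the low side stood the nuclear PA28 activator Psme3 at -0.48 ± 0.023 and the inhibitor Psmf1 at -0.43 ± 0.034. Psma8, at 39 counts in all of IP and 172 in Input, had -2.21 ± 0.59. Psme2b was at -0.28 ± 0.11, and it and Psme2 may share reads. Each named difference passed edgeR's quasi-likelihood test, with adjusted p from 8.94e-36 for Psmc6 to 0.0152 for Psme2b.

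Across the 51 members, 17 were called higher and 22 lower in IP than in Input, with a median of -0.03, where 32.8% of all genes were higher and 42.6% lower, with a median of -0.08. The split moved with the scaling, to 10 higher and 29 lower with DESeq2 or with RLE factors. A change of scaling moves all genes, and the shares of all genes on those scales are not given here. No lean of the members is therefore read from this split. Among 14 constitutive 20S genes, 4 were higher and 6 lower, from -0.23 for Psmb2 to 0.28 for Psma3.

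**Figure D1:**
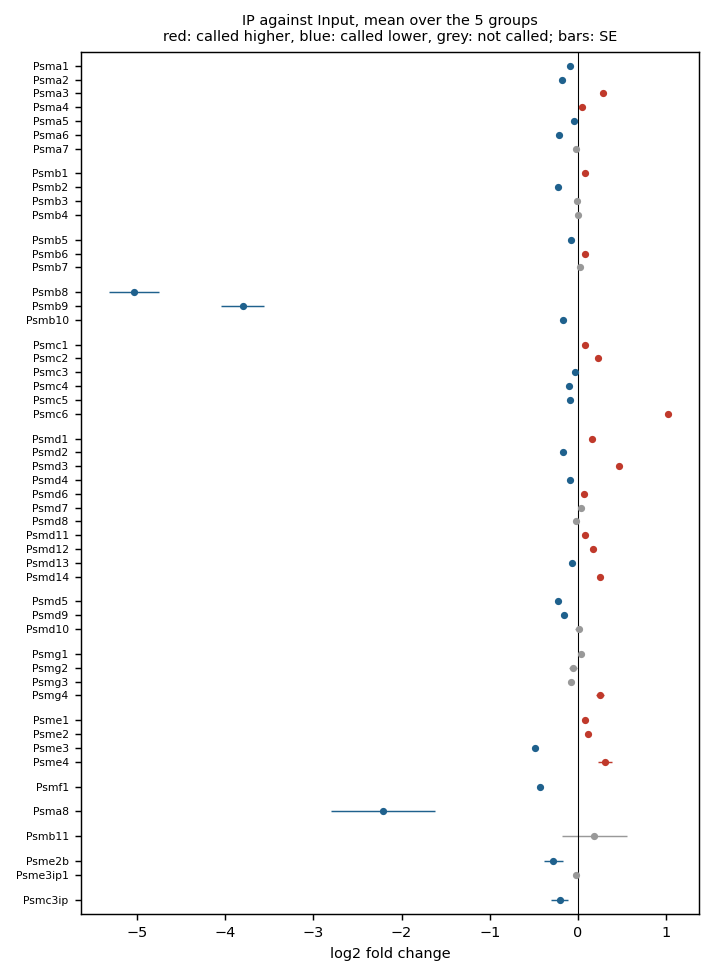
Log2 fold change of IP against Input for the 51 members (points) with SE (bars), ordered by role from the 20S rings at the top to genes of other roles at the bottom. Psmb8, Psmb9 and Psma8 lie far to the left and Psmc6 at 1.02 to the right, while the other members lie between -0.48 and 0.46.

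In SA and in SA:ANH the 20S core stood above NS in the pulldown. In SA against NS, 13 of 14 constitutive 20S genes were called higher, with a median of 0.24 and a range of 0.13 to 0.31, and Psmb2 (0.13, adjusted p = 0.144 by edgeR) did not pass. In SA:ANH against NS, all 14 were called higher, with a median of 0.27 and a range of 0.16 to 0.42. Over all 49 members tested, 25 were higher and 1 lower in SA, against 9.39% and 7.2% of all genes, and the median was 0.17 against 0.02 for all genes. In SA:ANH, 25 were higher and 2 lower, against 11.3% and 8.45% of all genes, with medians of 0.16 and 0.01. Both comparisons use the same 6 NS libraries.

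The members with the clearest differences were beta and alpha subunits of the core. Psmb1, a noncatalytic beta subunit, ran from 267 to 305 CPM in NS (median 295), 349.5 to 361 in SA (median 356) and 335 to 379.7 in SA:ANH (median 351). All SA and all SA:ANH libraries were above all NS libraries. Its log2 difference from NS was 0.28 ± 0.041 in SA (adjusted p = 3.16e-06) and 0.27 ± 0.041 in SA:ANH (adjusted p = 3.89e-06), by edgeR. Psma7, an alpha subunit, ran from 184.5 to 222 CPM in NS (median 203), 237 to 259 in SA (median 244) and 252 to 286 in SA:ANH (median 271.5). Again no library of these groups overlapped with NS. It differed from NS by 0.28 ± 0.042 in SA (adjusted p = 8.74e-06) and by 0.42 ± 0.042 in SA:ANH (adjusted p = 2.44e-09), by edgeR.

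Psmb6, which carries the caspase-like site, ran from 234 to 284 CPM in NS (median 265), 314 to 341.5 in SA (median 324) and 300.2 to 340.4 in SA:ANH (median 312). Psmb7, which carries the trypsin-like site, ran from 122 to 139.7 CPM in NS (median 134.5), 158 to 169 in SA (median 165) and 150.2 to 188 in SA:ANH (median 160.4). Neither gene overlapped with NS in either group. Psmb6 differed from NS by 0.31 ± 0.045 in SA and 0.27 ± 0.045 in SA:ANH, and Psmb7 by 0.31 ± 0.052 and 0.29 ± 0.052. Psmb5, with the chymotrypsin-like site, had 139.5 to 156 CPM in NS (median 147), 166 to 183 in SA (median 170.4) and 155.5 to 172.5 in SA:ANH (median 163). SA stayed clear of NS, and the lowest SA:ANH library lay just under the highest NS library. Its differences were 0.22 ± 0.05 and 0.16 ± 0.05. Psmb3 had 152 to 195.5 CPM in NS, 202.5 to 216.5 in SA and 208 to 234 in SA:ANH, with differences of 0.23 ± 0.053 and 0.26 ± 0.053. In all, 15 of the 49 members had every SA library above every NS library, as did 5.15% of all genes, and 17 had every SA:ANH library above every NS library, as did 6.71%.

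The immunoproteasome counterparts were not alike. Psmb10 was at 77.8 to 92.8 CPM in NS (median 83.1), 90.7 to 105 in SA (median 95.3) and 102 to 116 in SA:ANH (median 108). It was called higher in both groups, by 0.19 ± 0.061 in SA (adjusted p = 0.0276 by edgeR) and by 0.35 ± 0.061 in SA:ANH (adjusted p = 4.25e-05 by edgeR). Psmb8 stayed near 0 in all IP groups, and its differences of -1.03 ± 1.22 and -0.82 ± 1.21 did not pass, and a difference was not detectable at this depth. Psmb9 was not tested in IP, with 0 to 1.01 CPM.

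**Figure D2:**
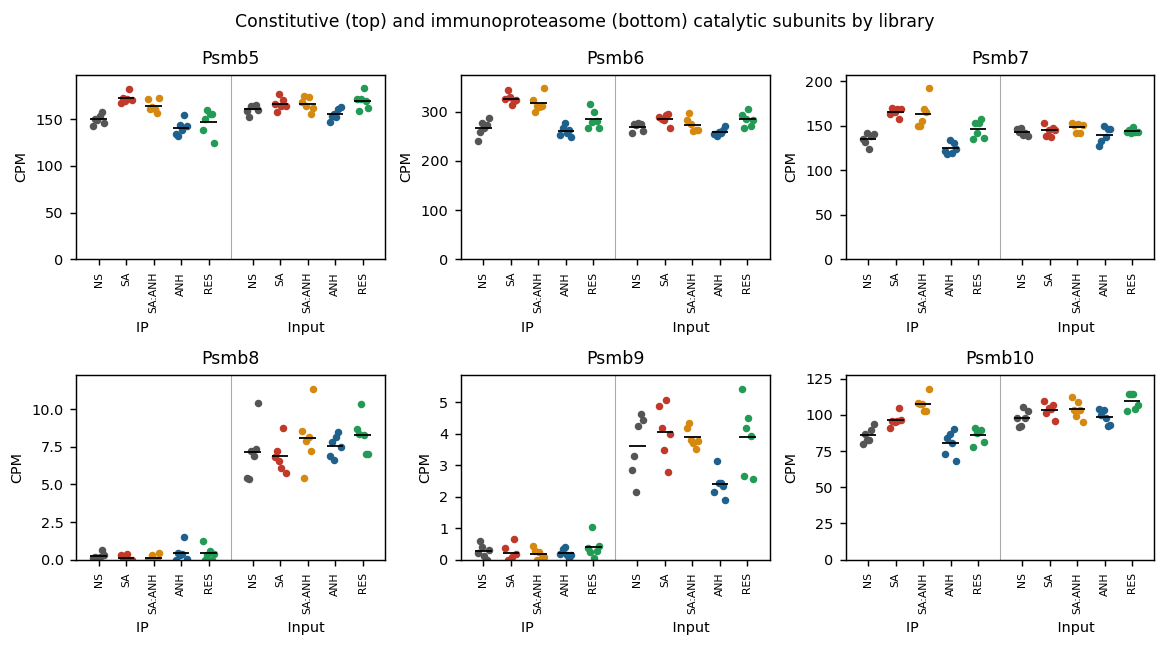
CPM of the constitutive catalytic subunits (top row) and of the immunoproteasome subunits (bottom row) in each library (points) with the group mean (line), for IP on the left and Input on the right of each panel, both scaled together. Psmb5, Psmb6 and Psmb7 are higher in SA and SA:ANH than in NS in IP, Psmb10 is at a like level in both fractions, and Psmb8 and Psmb9 are near 0 in IP.

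In the 19S cap the differences were fewer. Of 6 ATPases, Psmc1, Psmc3 and Psmc5 were called higher in SA and Psmc1 and Psmc3 in SA:ANH. Psmc3 had the smallest p of them in SA, with 279.5 to 296 CPM in NS (median 286.5), 310 to 340.3 in SA (median 323) and 283 to 344 in SA:ANH (median 334). SA lay above NS throughout, while SA:ANH overlapped with it. Its differences were 0.17 ± 0.046 and 0.18 ± 0.046, and its reads cannot be told from those of the overlapping gene Slc39a13 on the other strand. Of 11 non-ATPases, Psmd4, a ubiquitin receptor, Psmd7, Psmd8 and Psmd13 were called higher in SA. Psmd13 overlaps Sirt3 and the pseudogene Gm15542. Psmd4, Psmd7 and Psmd8 were called higher and Psmd2 and Psmd11 lower in SA:ANH. Psmd4 differed by 0.21 ± 0.045 in SA and 0.16 ± 0.045 in SA:ANH. Psmd2, the large scaffold of the cap base, had 429 to 459 CPM in NS (median 439), 371 to 444 in SA (median 428.5) and 336 to 423.5 in SA:ANH (median 403). All SA:ANH libraries were below all NS libraries, and SA overlapped with NS. Its difference was -0.17 ± 0.047 in SA:ANH (adjusted p = 0.00924 by edgeR) and -0.09 ± 0.047 in SA (adjusted p = 0.203 by edgeR). Psmd11 differed by -0.15 ± 0.052 in SA:ANH. Psmd3, the largest rise of the cap against Input after Psmc6, had -0.06 ± 0.051 in SA and -0.10 ± 0.051 in SA:ANH, and neither passed.

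The activators were split. Psme2 had the largest positive difference of all called members in SA, at 38.5 to 43.4 CPM in NS (median 41.0), 48.2 to 61.1 in SA (median 53.6) and 50.05 to 59.4 in SA:ANH (median 54.2). Neither group overlapped with NS, and the differences were 0.38 ± 0.074 in SA (adjusted p = 0.000289) and 0.41 ± 0.074 in SA:ANH (adjusted p = 6.65e-05), by edgeR. Its partner Psme1 was called higher in SA, by 0.31 ± 0.065, and had 0.17 ± 0.065 in SA:ANH, which did not pass (adjusted p = 0.0604 by edgeR). Psme1 overlaps Emc9 on the other strand. Psme3 was the only member called lower in SA. It had 108 to 128 CPM in NS (median 117), 91.3 to 110.2 in SA (median 105) and 98.5 to 113 in SA:ANH (median 111), and both groups overlapped with NS. Its differences were -0.18 ± 0.056 in SA and -0.11 ± 0.056 in SA:ANH, the second not passing. Psme4 had 3.15 to 9.12 CPM in NS and 8.35 to 11.4 in SA:ANH, a called difference of 0.65 ± 0.21. Of the 4 chaperones of 20S assembly, Psmg3 and Psmg4 were called higher in SA and Psmg1, Psmg3 and Psmg4 in SA:ANH. Psmg4 had 19.1 to 24.5 CPM in NS (median 20.8), 23.9 to 29.8 in SA (median 27.8) and 23.6 to 28.4 in SA:ANH (median 26.1), overlapping with NS at the edges. Its differences were 0.38 ± 0.11 and 0.31 ± 0.11. None of the 3 chaperones of 19S assembly passed edgeR's test in either group, where Psmd9 had 0.17 ± 0.063 in SA and 0.14 ± 0.063 in SA:ANH.

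**Figure D3:**
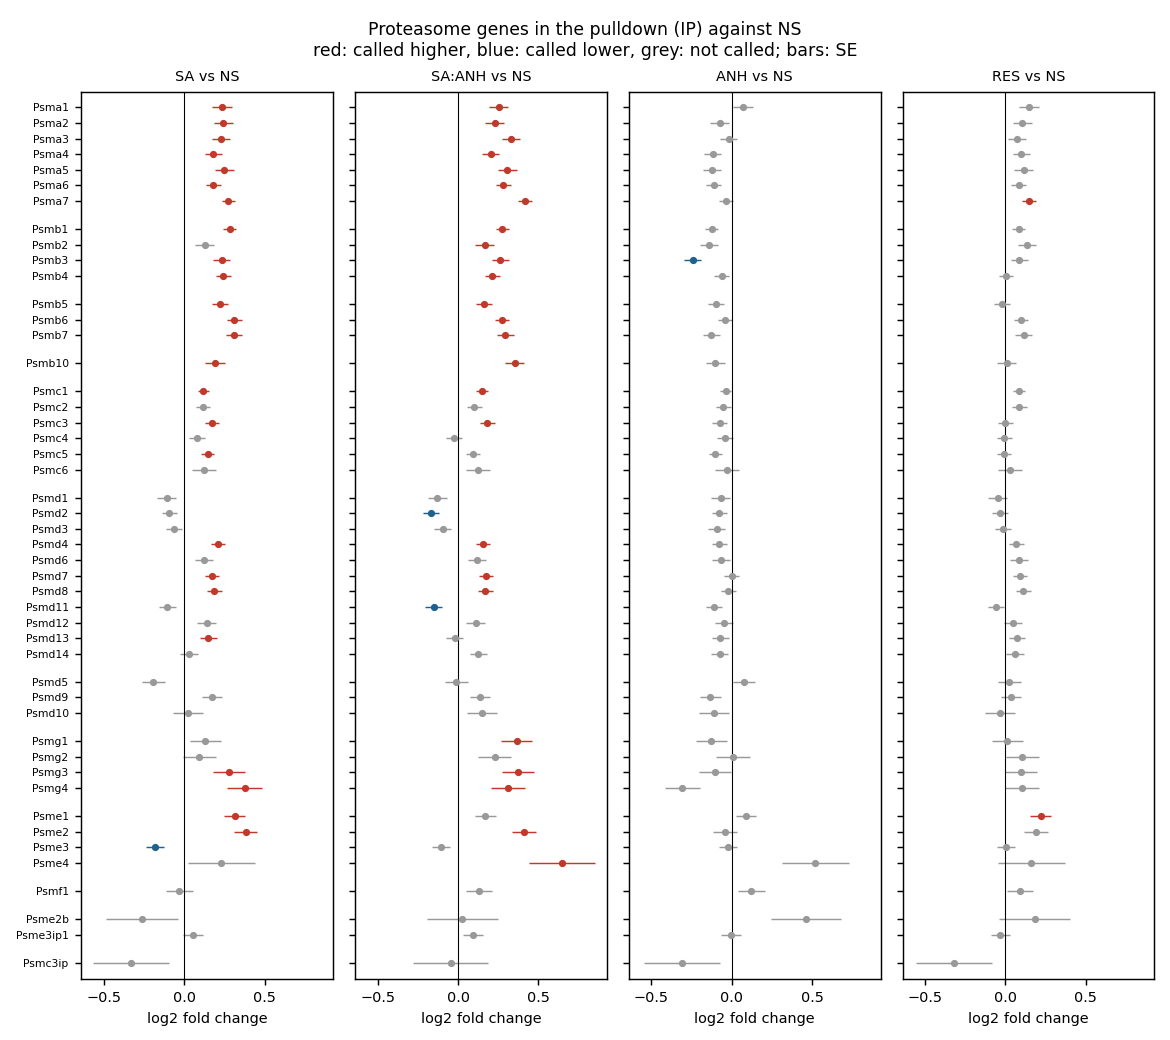
Log2 fold change against NS in IP for 47 members (points) with SE (bars), in role order from the 20S alpha ring at the top, leaving out the 4 members that were not tested or had few counts (Psma8, Psmb8, Psmb9, Psmb11). The 20S genes form a column right of 0 in SA and SA:ANH, and in ANH and RES nearly all points are grey.

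Gene length moved with these differences. Among protein-coding genes at 10 CPM or more that are not members, 62.4% of the shortest of 5 length classes were called higher in SA, with a median of 0.26, and 6.54% of those over 3500 bases, with a median of -0.04. That class held 11 members, from Psmg4 at 555 bases to Psma5 at 1239, and 9 were called higher in SA, with a median of 0.24. In the third class, whose 10 members ran from Psmc3 at 1819 bases to Psmg3 at 2401, 7 of 10 members were called higher, with a median of 0.18, against 14.6% and a median of 0.04 among the others. In SA:ANH, 74.2% of other genes of the shortest class were called higher, with a median of 0.32, and 11 of 11 members, with a median of 0.27. In the third class it was 5 of 10 members, with a median of 0.16, against 18.8% and 0.03. In the second class, from Psmg2 at 1300 bases to Psmc1 at 1591, Psma7, Psmb3, Psmb10, Psmc1 and Psmd7 were called higher in both groups. Psmc5 was called higher in SA only, and Psmd6, Psmd10, Psmd14 and Psmg2 passed in neither. Longer members, from Psmd9 at 2634 bases to Psmc2 at 3466, were more mixed. Of these, Psma2, Psma3 and Psmb7 were called higher and Psme3 lower in SA. In SA:ANH Psma2, Psma3 and Psmb7 were again higher, and Psmd2 and Psmd11 lower. Psmc2, Psmd1, Psmd3, Psmd9 and Psme3ip1 passed in neither group. Across 44 members, log2 change and log2 length had a Pearson r of -0.559 in SA and -0.534 in SA:ANH, and across 8866 protein-coding genes -0.317 and -0.353. These points are genes of the same libraries and are not independent.

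When the trend of level on gene length was taken out of each library, an alternative chosen after seeing the data, 9 of 49 members were called higher and 2 lower in SA, with a median of 0.05, where 6.45% of all genes were higher and 8.93% lower. In SA:ANH 9 were higher and 4 lower, with a median of 0.04, where 8.3% of all genes were higher and 9.71% lower. In SA the 20S genes still called higher were Psma2, Psma3, Psma7, Psmb1 and Psmb7, and Psmb2 was then called lower. In SA:ANH the same 5 names were called higher, and Psmb2 and Psmb5 lower. Psmb5 changed sign in both, to -0.05 and -0.18, Psmg4 to -0.01 and -0.19, and Psmb6 to -0.04 in SA:ANH. Of those 5 genes, Psma2 overlaps AW209491 and Psmb7 overlaps Nek6. Outside the 20S rings, Psmc2, Psmd4, Psmd8 and Psme1 were called higher and Psme3 lower in SA. In SA:ANH Psmc2, Psmb10, Psme4 and Psmg3 were called higher and Psmd2 and Psmd11 lower. Psme2 did not pass on this scale, with 0.13 in SA (adjusted p = 0.269 by edgeR) and 0.10 in SA:ANH (adjusted p = 0.395 by edgeR), and the call of Psmb10 in SA was lost.

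**Figure D4:**
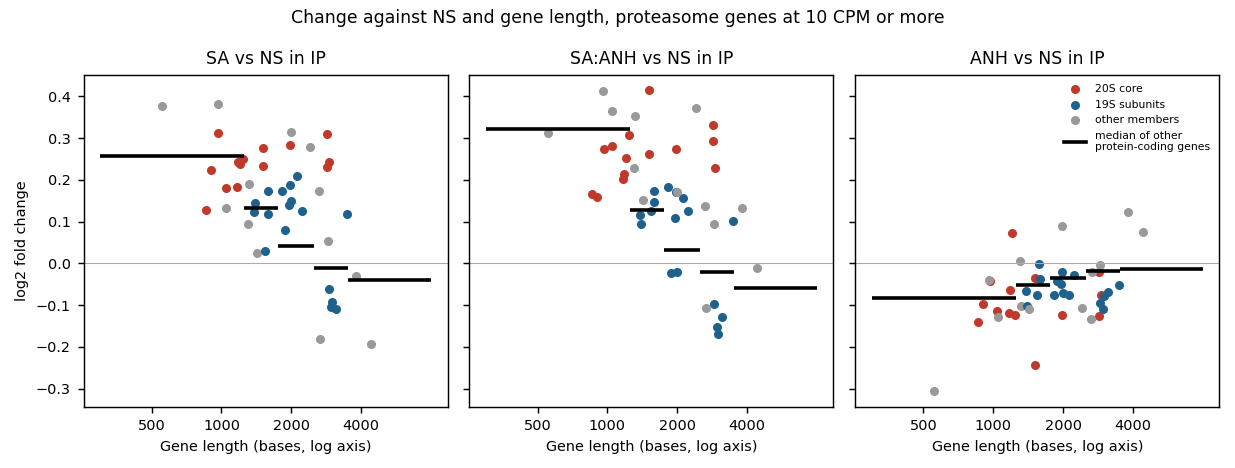
Log2 fold change against NS in IP and gene length in bases (log axis) for members at 10 CPM or more (points), with the median of other protein-coding genes at that level in 5 length classes (bars). Short genes lie high in SA and SA:ANH for members and other genes alike, and several longer 20S genes lie above the bars.

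In ANH and in RES few members were called against NS. In ANH 0 members were called higher and 1 lower, where 3.02% and 4.37% of all genes were called, with a median of -0.07. The called gene was Psmb3, at 141 to 171 CPM in ANH (median 149.7) against 152 to 195.5 in NS (median 182), an overlapping difference of -0.24 ± 0.053 (adjusted p = 0.00269 by edgeR). With edgeR 13 of 49 members had an unadjusted p under 0.05, as did 19.9% of all genes. DESeq2 called 3 and limma 2, and 2 were called without NS replicate 1. In RES 2 members were called higher and 0 lower, where 2.25% and 2.11% of all genes were called. Psma7 differed by 0.15 ± 0.042 (207 to 238 CPM) and Psme1 by 0.22 ± 0.065. Both calls were near the threshold, with adjusted p of 0.0378 and 0.0448 by edgeR, and 1 was left without NS replicate 1. In both groups the catalytic subunits Psmb5, Psmb6 and Psmb7 did not pass, with differences of -0.13 to -0.04 in ANH and -0.02 to 0.11 in RES. In RES the constitutive 20S genes ran from -0.02 for Psmb5, the only negative value, to 0.15 for Psma1. With edgeR 9 of 49 members had an unadjusted p under 0.05 in RES, as did 16.1% of all genes.

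The mean of log2 CPM over the 44 abundant members, relative to the mean of the 30 IP libraries, gave the same order in a single value per library. It was 0.103 ± 0.024 (SD, n = 6) in SA:ANH, 0.085 ± 0.038 in SA, -0.001 ± 0.065 in RES, -0.06 ± 0.037 in NS and -0.127 ± 0.029 in ANH. SA:ANH and SA overlapped, SA overlapped with RES, RES with NS and ANH, and NS with ANH. All 12 libraries of SA and SA:ANH lay above all 12 of NS and ANH, and RES replicate 6, at -0.122, was far below the other RES libraries. In Input the group means lay between -0.023 and 0.027. In IP the 14 constitutive 20S genes kept this order, at 0.161 in SA:ANH, 0.139 in SA, -0.01 in RES, -0.101 in NS and -0.19 in ANH. The 11 19S non-ATPases did not, at 0.015 in SA:ANH, 0.047 in SA, 0.023 in RES, -0.01 in NS and -0.075 in ANH. For them SA replicate 1, at -0.044, lay below all NS libraries. Taking pairs of members across 30 libraries as a description, the median r was 0.445 in IP and 0.163 after group means were removed, and 0.068 and 0.021 in Input. These libraries share depth and composition between genes.

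**Figure D5:**
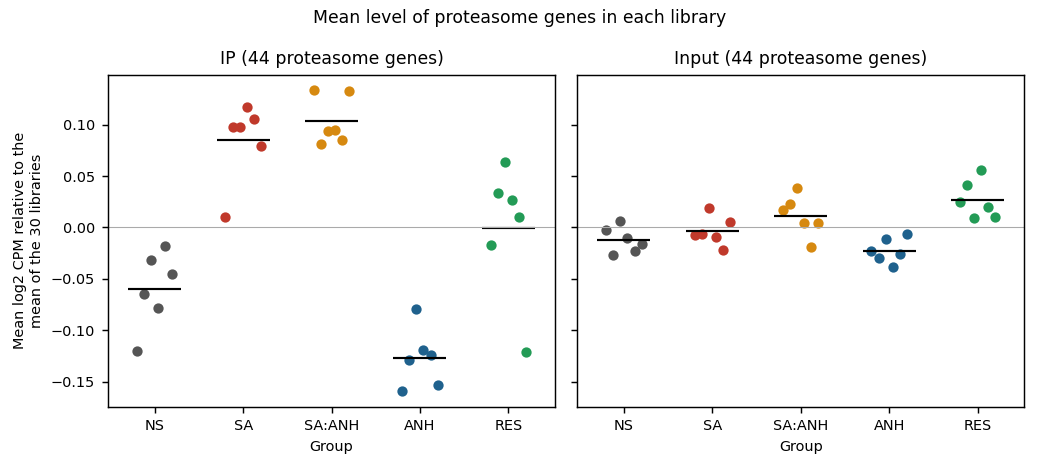
Mean log2 CPM of 44 members in each library, relative to the mean of the 30 libraries of that fraction (points), with group means (lines), in IP on the left and Input on the right. SA and SA:ANH lie above NS and ANH in IP, while all Input libraries lie between -0.038 and 0.056.

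In bulk tissue few members differed from NS. In SA 1 was called higher and 1 lower, where 1.23% and 1.6% of all genes were called, and in SA:ANH 1 and 1, where 2.54% and 3.1% were called. In ANH edgeR, DESeq2 and limma called 0 members, where 1.57% of genes were higher and 1.05% lower by edgeR. With edgeR 7 of 51 members had an unadjusted p under 0.05, as did 15.5% of all genes. In RES 3 were called higher and 0 lower, against 1.96% and 1.27%. Psmc3 was called in 3 of these comparisons, at 273 to 308 CPM in NS (median 292), 294.5 to 356 in SA (median 320.2), 315 to 346.5 in SA:ANH (median 324) and 316 to 349.9 in RES (median 331). Only SA overlapped with NS among these. The differences were 0.13 ± 0.037, 0.17 ± 0.037 and 0.18 ± 0.037, and the comparisons share the NS libraries. Psmc6 was lower in SA by 0.29 ± 0.076 on the log2 scale, at 31.2 to 34.4 CPM against 37.5 to 43.3 in NS, without overlap. In Input it was 33.4 to 43.3 CPM in SA:ANH (median 35.3), 43.2 to 48.9 in ANH and 28.5 to 44.1 in RES. In SA:ANH 5 of 6 libraries, at 33.4 to 35.6 CPM, were below all NS libraries, and replicate 6 was at 43.3. In RES Psmb10 was called higher by 0.16 ± 0.046 and Psmb2 by 0.13 ± 0.033, and in SA:ANH Psme2b had -0.82 ± 0.25. Psmb9 ran from 1.93 to 3.17 CPM in ANH against 2.17 to 4.68 in NS, and its difference of -0.58 ± 0.20 did not pass (adjusted p = 0.127 by edgeR). Across the 5 Input groups 8 of 51 members differed, where 12.9% of all genes did, and across the 5 IP groups 35 of 49, where 33.1% did. Psmb9 was among the 8 in Input, near the threshold (adjusted p = 0.0476 by edgeR's test across the 5 groups). The smallest p in Input belonged to Psmc6, Psmc3 and Psmb2, and in IP to Psma7, Psmb1 and Psmb3.

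Whether the difference from NS was unlike in the fractions was tested over all 60 libraries. For SA, IP minus Input was called positive for 9 members and negative for 0, where 4.49% and 4.55% of all genes were called. Among the 9 was Psmc6, which was called lower in SA Input (-0.29) and did not pass in SA IP (0.13). By edgeR 23 of 51 members had an unadjusted p under 0.05, as did 21.3% of all genes. The smallest p belonged to Psmb1 (0.25 ± 0.048), Psma1 (0.33 ± 0.076) and Psmb7 (0.27 ± 0.063). For SA:ANH 16 were positive and 2 negative, against 7.14% and 8.06%, led by Psma7 (0.41 ± 0.054), Psmb1 (0.27 ± 0.048) and Psmd2 (-0.30 ± 0.061). Of 14 constitutive 20S genes, 6 were called for SA and 11 for SA:ANH. Psmd2 ran from 476.6 to 543 CPM in SA:ANH Input and 435 to 496 in NS Input. For ANH 1 member was called, where 1.77% of genes were positive and 1.85% negative. That was Psme2b, at 1.14 ± 0.34 and 3.39 to 5.17 CPM in ANH IP. Its difference from NS was 0.46 in IP and -0.66 in Input, and neither passed alone. In Input it ran from 1.92 to 4.57 CPM in ANH and from 4.17 to 6.60 in NS. For RES edgeR, DESeq2 and limma called 0 members, where 1.41% of genes were positive and 1.28% negative. With edgeR 4 of 51 members had an unadjusted p under 0.05, as did 14.4% of all genes.

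Comparisons between subtypes do not use NS. Against ANH, 31 members were higher and 3 lower in SA, where 12.8% and 10.2% of all genes were called, and 30 were higher and 0 lower in SA:ANH, where 10.8% and 7.03% were called. All 14 constitutive 20S genes were called higher in each, with medians of 0.31 and 0.34. The largest differences among the higher members were Psmg4 (0.68 ± 0.11), Psmb3 (0.48 ± 0.053) and Psmb7 (0.44 ± 0.052) in SA, and Psmg4 (0.62 ± 0.11), Psmb3 (0.51 ± 0.053) and Psmg1 (0.49 ± 0.097) in SA:ANH. Psmg4 ran from 14.2 to 21.4 CPM in ANH, and all SA and SA:ANH libraries lay above that. Lower in SA than in ANH were Psme2b (-0.73 ± 0.22), Psmd5 (-0.27 ± 0.071) and Psme3 (-0.16 ± 0.056). With the length trend taken out, 12 of 49 members were higher and 3 lower in SA, where 8.65% and 13.6% of all genes were called. In SA:ANH 13 were higher and 2 lower, where 6.53% and 9.85% were called.

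Against RES, 10 members were higher and 2 lower in SA, where 6.83% and 4.8% of all genes were called. The largest differences were Psmb5 (0.24 ± 0.05), Psmb4 (0.24 ± 0.045) and Psmb6 (0.22 ± 0.045), with Psmd5 (-0.22 ± 0.071) and Psme3 (-0.18 ± 0.056) on the other side. In SA:ANH 14 were higher and 0 lower than in RES, where 8.21% and 5.61% were called, with Psmg1 (0.35 ± 0.096), Psmb10 (0.35 ± 0.061) and Psma7 (0.27 ± 0.042) largest. These counts rested in part on RES replicate 6, without which 5 and 8 members were called. In ANH 0 members were higher and 14 lower than in RES, where 3.78% and 5.43% were called, led by Psmg4 (-0.41 ± 0.11), Psmb3 (-0.33 ± 0.053) and Psmb2 (-0.27 ± 0.059). Without ANH replicate 1 it was 9. Between SA:ANH and SA 1 member was higher and 1 lower, where 4.89% and 4.64% of genes were called. Psma7 differed by 0.14 ± 0.042 and Psmd13 by -0.17 ± 0.052, and without SA replicate 1 only 1 was called. Psmb10 stood at 0.16 ± 0.061 in this comparison and did not pass (adjusted p = 0.1 by edgeR).

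The rest of the ubiquitin pathway gave a mixed picture in IP. Of 50 tested ubiquitin-proteasome genes outside the name rule, 8 were higher and 4 lower in SA, with a median of 0.02, where 9.39% and 7.2% of all genes were called. In SA:ANH 8 were higher and 7 lower, with a median of 0.00, where 11.3% and 8.45% were called. Among the rises was Rps27a (0.69 ± 0.072 in SA, 0.84 ± 0.072 in SA:ANH), which encodes ubiquitin fused to a ribosomal protein. Sem1, a small subunit of the cap, was also called higher in both (0.30 ± 0.075 in SA, 0.37 ± 0.075 in SA:ANH). So was Pomp, the 20S maturation factor (0.24 ± 0.046 in SA, 0.39 ± 0.046 in SA:ANH). The largest falls in SA were the conjugating enzymes Ube2h (-0.32 ± 0.08) and Ube2g1 (-0.26 ± 0.09) and the shuttle factor Ubqln1 (-0.25 ± 0.057). In SA:ANH they were Ube2h (-0.26 ± 0.08), Ubqln1 (-0.25 ± 0.057) and Usp5 (-0.21 ± 0.059). In ANH 1 was higher, Ube2d1 (0.32 ± 0.079), and 5 lower, led by Sem1 (-0.29 ± 0.076), the unfoldase Vcp (-0.23 ± 0.051) and Ubqln2 (-0.22 ± 0.069), where 3.02% and 4.37% of all genes were called. In RES 2 were higher, Txnl1 (0.15 ± 0.044) among them, and 0 lower, where 2.25% and 2.11% of all genes were called. Against Input, 35 were higher in IP and 8 lower, with a median of 0.16, where 32.8% and 42.6% of all genes were called. The ubiquitin ligase Ube3a (1.44 ± 0.036), the deubiquitinase Usp7 (1.06 ± 0.026) and Uba6 (0.84 ± 0.098) were highest. Lowest were the stress factor Nfe2l2 (-4.50 ± 0.25), Nploc4 (-0.42 ± 0.033) and Mafk (-0.36 ± 0.093).

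Other large complexes were set beside these counts in IP against NS. The shares of all genes called higher and lower were 9.39% and 7.2% in SA, 11.3% and 8.45% in SA:ANH, 3.02% and 4.37% in ANH and 2.25% and 2.11% in RES. Of 83 ribosomal protein genes, 78 were called higher in SA and 81 in SA:ANH, with 0 lower in both and medians of 0.56 and 0.66. In ANH 0 of them were higher and 1 lower, with a median of -0.04, and in RES 40 were higher and 0 lower, with a median of 0.23. Of 85 respiratory chain and ATP synthase genes, 66 were higher and 0 lower in SA, with a median of 0.28, and 67 were higher and 4 lower in SA:ANH, with a median of 0.36. In ANH 0 of these were higher and 26 lower, with a median of -0.14, and in RES 0 were called, with a median of 0.03. Of the 8 subunits of the CCT chaperonin, 2 were higher and 0 lower in SA, 0 were called in SA:ANH, 1 was lower in ANH and 0 were called in RES, with medians of 0.06, -0.04, -0.07 and 0.00.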

How the data were processed

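RNA-seq was made from 30 IP and 30 Input libraries, 6 per group and fraction. The authors deposited a table of expected counts per gene. Per the labels' protocols, libraries were made with SMART-Seq v4 and TruSeq kits. Trimmomatic 0.32, TopHat2 2.0.13, Bowtie2 2.2.3 and mm10 are named per the submitters' processing notes. The counter and its strand setting were not given in the sources used here. Reads of overlapping genes therefore cannot be told apart, which touched 7 of the 51 members. These were Psma2, Psmb7, Psmc3, Psmc3ip, Psmd13, Psme1 and Psme3ip1.

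Counts were rounded and tested with edgeR 4.0.16 (R 4.3.3): TMM scaling, filterByExpr with a minimum count of 10, quasi-likelihood test, Benjamini-Hochberg adjustment over all genes tested, called under 0.05. IP, Input and both fractions were fitted separately, each over all groups. DESeq2 1.42.0 and limma 3.58.1 were alternatives, with no filter, RLE factors, fewer libraries and a replicate block. The length offset, protein-coding genes only and 4 left-out libraries were chosen after seeing the data. The tests were tested on simulated data. Depth was 19078928 to 27073456 counts a library, and intervals cover the spread between libraries.

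The members and lists were chosen with earlier results of these data known. Genes named with values were the largest called rises and falls (6 each way for IP against Input, 3 each way elsewhere), the catalytic pairs, the called member of each role with the smallest p against NS, and the 3 smallest p of the tests across groups and fractions. Psmd3, Psmd9 and Psmb9 in Input were named after their values were seen. The values of 1 gene of the ubiquitin list are not reported here, though its calls are in the list's counts.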

Additional observations from a re-analysis of the deposited data

Results flagged for a closer look

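Among 170 sets of 6 libraries, 8 held a library that stood apart from the other 5, and chance gives about 1 in 20. In IP the mean log2 level of 44 members was 0.0105 in SA replicate 1 against 0.0796 to 0.117 in the others. Psmb3 was 234 CPM in SA:ANH replicate 6 (others 208 to 214), Psmb5 was 183 CPM in SA replicate 5 (others 166 to 172), Psmb8 was 1.43 CPM in ANH replicate 5 (others 0 to 0.436) and Psmc6 was 87 CPM in ANH replicate 6 (others 64.7 to 71.9). In Input of SA:ANH, Psmb1 was 290 CPM in replicate 6 (others 303 to 306), Psmc6 was 43.3 CPM in replicate 6 (others 33.4 to 35.6) and Psme2 was 38.7 CPM in replicate 5 (others 44.3 to 47.2).

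The difference from NS was unlike in IP and Input, by edgeR's test of the difference itself, for Psmb1 (0.25), Psma1 (0.33) and Psmb7 (0.27) in SA, for Psma7 (0.41), Psmb1 (0.27) and Psmd2 (-0.30) in SA:ANH, and for Psme2b (1.14) in ANH.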

How the results depend on the processing

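The values here are numbers of members called. With RLE factors all 21 counts, which take both directions together, stayed within 1.5 times. With the length trend taken out they were 11 for SA and 13 for SA:ANH against NS in IP, 0 for RES in IP, 1 each for SA:ANH, ANH and RES in Input, 4 for SA, 8 for SA:ANH and 3 for ANH against RES, 4 for SA:ANH against SA, 15 for each of SA and SA:ANH against ANH, 22 across IP groups, 5 across Input groups and 9 for the fraction difference of SA:ANH. On this scale the sign reversed for Psmb5 (-0.046 in SA and -0.176 in SA:ANH against NS, -0.079 in SA:ANH against RES, -0.158 in SA:ANH and -0.028 in SA against ANH), Psmb6 (-0.035 in SA:ANH against NS, -0.063 in SA:ANH and 0.009 in ANH against RES, -0.072 in SA:ANH against ANH, -0.06 for the fraction difference), Psmg4 (-0.01 in SA and -0.185 in SA:ANH against NS, -0.078 for the fraction difference) and Psme2 (-0.016 in SA:ANH against RES). The cause was not tested. DESeq2 called 3 in ANH against NS in IP, and 14 and 2 for the fraction differences of SA and ANH. Limma called 2 in ANH in IP and 2 for the ANH fraction difference. With no filter it was 0 for RES in IP, 1 each for SA, SA:ANH and RES in Input, 9 for ANH against RES, 0 for SA:ANH against SA and 0 for the ANH fraction difference. With only the 12 libraries compared it was 0 for RES in IP, 1 each for SA and SA:ANH in Input, 8 for ANH against RES and 1 for SA:ANH against SA. With protein-coding genes only it was 1 for SA:ANH in Input and 9 for ANH against RES. With 1 library left out (SA 1, NS 1, ANH 1 or RES 6) it was 20 to 27 for SA, 1 to 2 for ANH and 1 to 3 for RES against NS in IP, 5 to 9 for SA, 8 for SA:ANH and 9 to 17 for ANH against RES, and 1 for SA:ANH against SA. Same-numbered libraries deviated together little (median r 0.011 within IP, 0.038 within Input and 0.03 between fractions). For other pairs the medians were -0.003, -0.006 and -0.008. A low correlation cannot exclude that the numbers pair the samples, and the main fits used no pairing. The replicate block gave 1 for RES in IP, 3 and 1 for the fraction differences of ANH and RES, and left the other 18 counts within 1.5 times. Depth limits Psmb8, Psmb9 and Psma8 in IP.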
